A study of Homo sapiens with 18 samples.

Results

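Chromatin accessibility was examined at 10 receptor tyrosine kinase genes, EGFR, ERBB2, ERBB3, FGFR1, FGFR2, MET, KIT, PDGFRA, AXL and IGF1R, in 6 ovarian cancer cell lines. The genes were chosen by name, and their windows are those of the accessibility table that overlap the GENCODE GRCh37 (hg19) span of each gene extended by 10 kb on both sides. This gave 124 of the 89428 windows. IGF1R had 29 windows, EGFR 24, ERBB2 and MET 12 each, FGFR1, FGFR2, PDGFRA and AXL 9 each, KIT 6 and ERBB3 5. A window is about 1 kb long on a grid with a step of 900 bp, so neighbours share reads. The table holds only part of that grid, from 5.73% at FGFR2 (9 of 157 windows) to 16.9% at ERBB2 (12 of 71). The study's methods set a lower and an upper limit on window depth, so the deepest windows may be missing. Means, spans and highest windows below refer to the windows present. Of the 124 windows, 25 lie at a start of one of the gene's own transcripts, from 1 kb upstream to 100 bp downstream, and are called promoter windows. A further 12 lie only at the promoter of another gene (MIEN1 and GRB7 beside ERBB2, PA2G4 beside ERBB3, LETM2 beside FGFR1 and HNRNPUL1 beside AXL), and the other 87 are called distal. Distances below run from the start of the canonical transcript to the middle of the window, and positive values lie downstream.

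Receptor tyrosine kinases span the cell membrane. A growth factor bound outside brings receptors together, their kinase domains phosphorylate tyrosines on the inner part, and adaptors that dock there start the RAS-MAPK and PI3K-AKT pathways. In ovarian cancer EGFR and ERBB2, MET, AXL and IGF1R are studied for their part in growth, invasion and response to chemotherapy.

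ATAC-seq, in which the Tn5 transposase inserts sequencing adaptors into open chromatin, was done on 3 libraries of each line. The labels class A2780, PEA1 and PEO1 as sensitive and CP70, PEA2 and PEO4 as resistant to platinum, and they give no treatment for any library. CP70 is a derivative of A2780 made resistant in culture, and the labels call both endometrial/ovarian. PEA1 and PEA2 come from ascites of 1 patient before platinum and after relapse. PEO1 and PEO4 come from 1 other patient, both after platinum-based chemotherapy, before and after resistance was seen in the clinic. Each line is an established culture, all were grown in the same serum-containing medium, and nothing says that the 3 libraries of a line came from separate cultures, so p-values measure the spread between libraries, which may be technical. A pair differs in everything that separates its lines, resistance among them.

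Values are FPKM, the reads of a window scaled to its length and to the reads of the library. Library totals recovered from the table ranged from 8963079 reads in PEO1 to 60435027 in A2780. The windows of the table held between 8.38% (A2780) and 40.8% (PEO1) of a library's reads. The median window of a library stood at 2.79 to 2.93 FPKM in PEO1, 2.24 to 2.27 in PEO4, 1.62 to 1.87 in PEA2, 1.05 to 1.31 in PEA1, 0.833 to 0.838 in CP70 and 0.645 to 0.732 in A2780, the order of that share. Levels below are given as deposited and, where it matters, as a ratio to this library median. For the lineage check, 7 of 8 epithelial and ovarian markers had the window of their canonical start in the table, among them EPCAM (0.740 FPKM in A2780, 11.3 in PEO1), PAX8 (0.610 in A2780, 7.90 in PEO1) and WT1 (1.10 in A2780, 20.6 in PEO4). EPCAM and PAX8 were thus near the library median in A2780, as EPCAM was in PEA1 (1.10). ESR1 lay below the library medians in A2780 (0.433), CP70 (0.673), PEA1 (0.437) and PEA2 (1.05). CDH1 did so in PEA1 (1.01), and KRT8 and KRT18 did so in PEA2 (1.57 and 1.27). All 7 markers lay above the library medians in PEO1 and PEO4. None of 3 fibroblast and none of 3 endothelial marker starts were in the table, and of 3 leukocyte markers only CD14 was, at 0.590 to 5.67 FPKM.

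Across the lines, 9 of the 10 promoter means lay highest in a PEA or PEO line, and FGFR1 lay highest in CP70, where 1 library of 3 carried the rank (5.04, 2.72 and 2.51 FPKM, overlapping PEA1). PEO1 was highest for EGFR, ERBB2, ERBB3, FGFR2, MET and AXL, PEO4 for IGF1R, and PEA2 for KIT and PDGFRA. Relative to the library median the order changed. CP70 was then highest for ERBB2, ERBB3, FGFR1 and FGFR2, PEA1 for EGFR, PDGFRA and AXL, PEO1 for MET, PEO4 for IGF1R and PEA2 for KIT. The lines highest for FGFR1, MET, KIT and IGF1R were therefore the same on both scales.

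**Figure D1:**
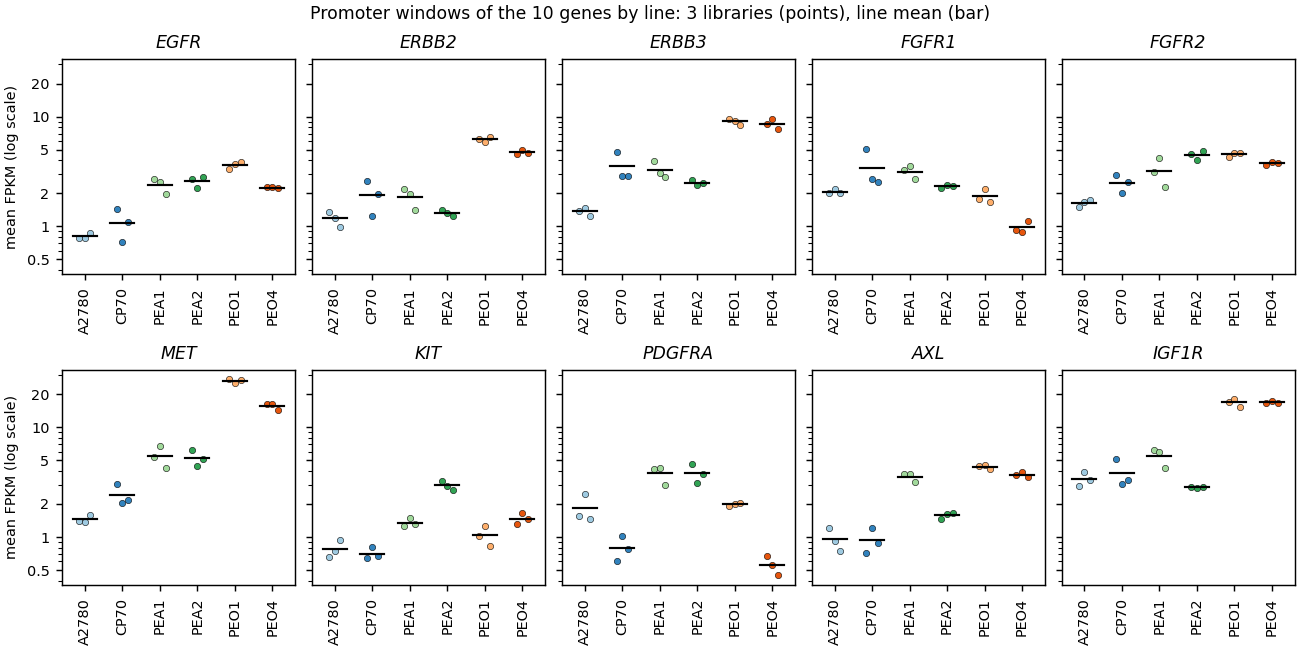
Mean FPKM of the promoter windows of each gene on a log axis, with the 3 libraries of a line as points and the line mean as a bar. MET reaches 26.6 FPKM in PEO1, and the PDGFRA points of CP70 and PEO4 lie below those of their partner lines.

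Each resistant line was compared with its sensitive partner by limma on log2(FPKM + 0.1), and a window was called at a log2 fold change above 2 in size and an adjusted p below 0.001. In all 3 pairs every window of the table past the fold threshold also passed on p, so that the size of the change decided the calls. For CP70 and PEA2 the model gave each window the spread fitted over all windows for its mean level, with no weight on its own spread. In CP70, 0 of 18 promoter and 0 of 21 distal windows tested were called by limma. At a log2 threshold of 1 and an adjusted p below 0.05 limma called 5, and edgeR at the first thresholds called 1. The background was 0.182% higher and 0.072% lower among all promoter windows and 0.742% and 0.748% among all distal ones. In PEA2, 0 of 25 promoter windows were called against a background of 1.48% higher and 0.743% lower. Of 73 distal windows, 2 were higher and 2 lower in PEA2, against 16.6% and 1.79% of all distal windows. In PEO4, 0 of 22 promoter windows were called (background 0.483% higher and 0.949% lower). Of 72 distal windows 0 were higher and 4 lower in PEO4, against 3.74% and 7.99% of all. Of the windows at other genes' promoters 0 were called in any pair. By the middle of the window, the 8 calls lay in introns of the canonical transcripts of EGFR, FGFR2 and IGF1R, and a window may also reach into an exon.

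As 1 value per gene, the mean of its promoter or of its distal windows was tested over all protein-coding genes and called at a log2 fold change above 1 in size and an adjusted p below 0.05. On promoter means, ERBB3 rose and PDGFRA fell in CP70, 2 of 7 members tested (all genes: 7.28% higher, 0.397% lower). KIT rose and AXL fell in PEA2, 2 of 10 (7.44% and 11.7%). PDGFRA fell in PEO4, 1 of 10 (4.8% and 7.45%). On distal means, 0 of 2 members tested were called in CP70 (9.68% and 0.498%), FGFR2 rose and AXL fell among 9 in PEA2 (23.3% and 8.44%), and 0 of 10 were called in PEO4 (6.28% and 16.9%). The median log2 fold change of all genes was 0.59, -0.20 and -0.04 on promoter means and 0.62, 0.25 and -0.25 on distal means in CP70, PEA2 and PEO4. Called changes of the members are therefore also given after median centring of the libraries. They are also given after removal, in each library, of the median of all windows in the same 5 Mb bin (called the bin median below). The bin median takes promoter and distal windows together. After its removal all genes had medians of 0.16, -0.51 and 0.21 on promoter means in CP70, PEA2 and PEO4. On distal means these were 0.11, -0.13 and 0.04. The thresholds were not moved to allow for this.

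**Figure D2:**
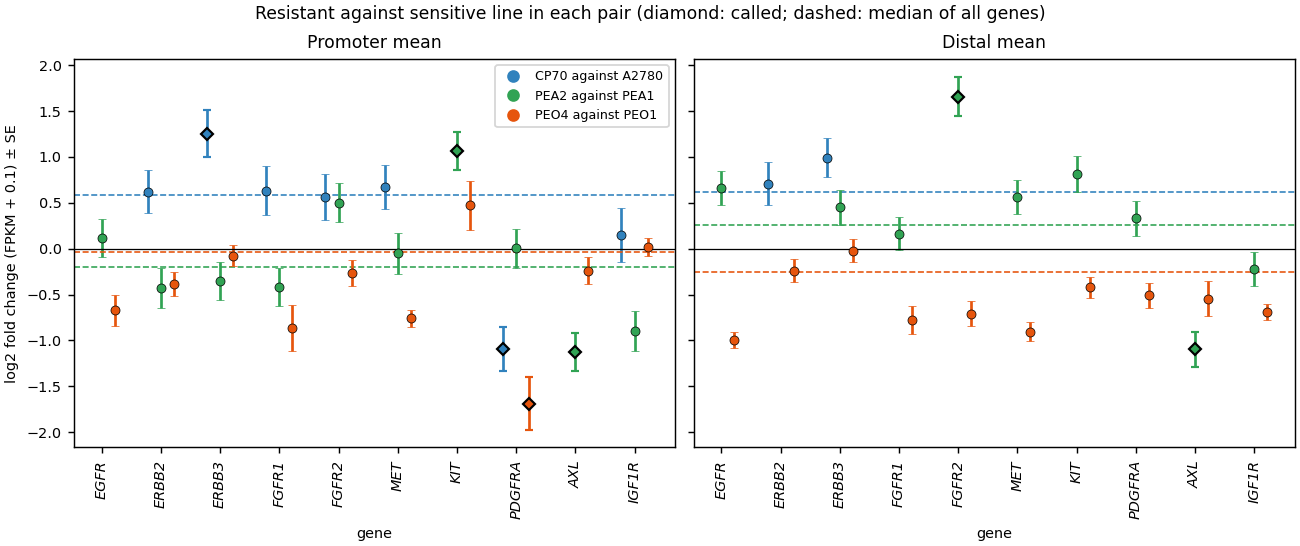
Log2 fold change with its standard error for the resistant against the sensitive line, on promoter means (left) and distal means (right), with called genes as diamonds and the median of all genes as dashed lines. PDGFRA lies at -1.09 in CP70 and -1.69 in PEO4 on the left, and FGFR2 at 1.66 in PEA2 on the right.

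The 3 ERBB receptors of the set differ in role. EGFR binds EGF and related ligands, ERBB2 has no known ligand and serves as partner of the others, and ERBB3 binds neuregulins and has little kinase activity of its own. The EGFR promoter mean was, in FPKM, 3.66 ± 0.263 in PEO1, 2.59 ± 0.313 in PEA2, 2.39 ± 0.383 in PEA1, 2.26 ± 0.0342 in PEO4, 1.09 ± 0.361 in CP70 and 0.814 ± 0.0507 in A2780 (SD, n = 3 libraries here and below). Neighbours PEA2, PEA1 and PEO4 in that order overlapped in their libraries, as did CP70 and A2780. The window of the canonical start (chr7:55086300-55087300) had FPKM values of 8.32 ± 1.43 in PEO1, 6.09 ± 0.0412 in PEO4, 6.04 ± 1.29 in PEA1, 5.76 ± 0.735 in PEA2, 2.78 ± 0.962 in CP70 and 2.03 ± 0.186 in A2780. The promoter mean of EGFR was not called in either pair where it was tested, with a log2 fold change of 0.12 ± 0.208 (SE, adjusted p = 0.643 by limma) in PEA2 and -0.67 ± 0.169 (SE, adjusted p = 0.000595 by limma) in PEO4.

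The distal windows of EGFR separated the lines more widely. Their mean was, in FPKM, 4.52, 4.85 and 4.89 in PEO1, 3.63, 2.78 and 3.05 in PEA2, 2.34, 2.28 and 2.37 in PEO4, 2.11, 2.16 and 1.61 in PEA1, 0.473, 0.62 and 0.567 in CP70 and 0.457, 0.462 and 0.449 in A2780. No neighbours in that order overlapped, and the highest line stood 10.4-fold above the lowest, or 2.71-fold relative to the library median. In PEO4 the log2 fold change of the mean was -0.997 ± 0.0877 (SE, adjusted p = 1.53e-05 by limma), just inside the threshold of 1, and -0.73 after median centring and -0.25 after removal of the bin median. Without PEO1 replicate 1, and likewise without PEO4 replicate 3, 1 member was called on this mean in PEO4 in place of 0.

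The highest EGFR window lay in intron 1, 114.4 kb from the start (chr7:55200600-55201600), with FPKM values of 19.1, 21.6 and 22.1 in PEO1, 9.78, 7.75 and 9.45 in PEA2, 8.26, 6.62 and 6.97 in PEO4, 4.13, 4.8 and 3.74 in PEA1, 0.53, 0.718 and 0.838 in CP70 and 0.645, 0.608 and 0.595 in A2780. Every PEO1 library was above every library of the other lines, and A2780 and CP70 were below their library median. Its neighbour at 113.5 kb had FPKM values of 13.9, 16.4 and 16.5 in PEO1, 5.22, 4.51 and 5.64 in PEA2, 5.06, 4.51 and 4.68 in PEO4, 1.86, 2.21 and 1.53 in PEA1, 0.401, 0.338 and 0.298 in A2780 and 0.152, 0.239 and 0.419 in CP70, and its log2 difference of PEO1 from the other 5 lines was 3.38 ± 0.174 (SE, adjusted p = 6.61e-25 by limma), or 2.19 after median centring. The 300 bases at the border of both windows (GRCh37, chr7:55200500-55200799, plus strand) are shown as part of the strongest distal signal of EGFR. The capitals mark the match to TGANTCA, the AP-1 motif.
EGFR intron 1, 114 kb: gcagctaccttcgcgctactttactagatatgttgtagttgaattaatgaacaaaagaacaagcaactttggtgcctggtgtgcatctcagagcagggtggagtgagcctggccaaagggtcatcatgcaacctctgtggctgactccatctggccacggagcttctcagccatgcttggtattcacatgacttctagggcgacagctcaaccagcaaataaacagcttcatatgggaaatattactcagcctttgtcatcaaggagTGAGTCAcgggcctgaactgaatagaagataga

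A second EGFR window in intron 1, 33.4 kb from the start (chr7:55119600-55120600), had FPKM values of 4.05, 2.88 and 2.79 in PEO1, 2.31, 1.91 and 1.86 in PEA2, 0.641, 1.4 and 0.767 in PEA1, 0.523, 0.576 and 0.598 in PEO4, 0.303, 0.838 and 0.461 in CP70 and 0.366, 0.496 and 0.463 in A2780. The PEO1 and PEO4 libraries did not overlap, and the window fell in PEO4 with a log2 fold change of -2.31 ± 0.261 (SE, adjusted p = 9.83e-10 by limma). After median centring it was -1.96 and after removal of the bin median it was -1.57, neither past the threshold of 2. The neighbours at 34.3 and 35.2 kb stood at -1.67 and -1.08 in PEO4 and were not called. The median over all windows within 2.5 Mb of EGFR was -0.50 in PEO4 and 0.85 in PEA2. The stretch at the middle of this window is chr7:55119950-55120249 (GRCh37, plus strand), shown as the EGFR sequence that fell. The capitals mark CATTCC and CATTGTT, the reverse complements of the TEAD motif GGAATG and the SOX motif AACAATG.
EGFR intron 1, 33 kb: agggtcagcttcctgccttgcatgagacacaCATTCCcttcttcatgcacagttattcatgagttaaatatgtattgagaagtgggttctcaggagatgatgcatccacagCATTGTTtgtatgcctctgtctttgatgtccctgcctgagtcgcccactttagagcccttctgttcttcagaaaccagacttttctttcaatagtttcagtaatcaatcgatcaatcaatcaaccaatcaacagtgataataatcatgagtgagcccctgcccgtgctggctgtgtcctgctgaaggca

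**Figure D3:**
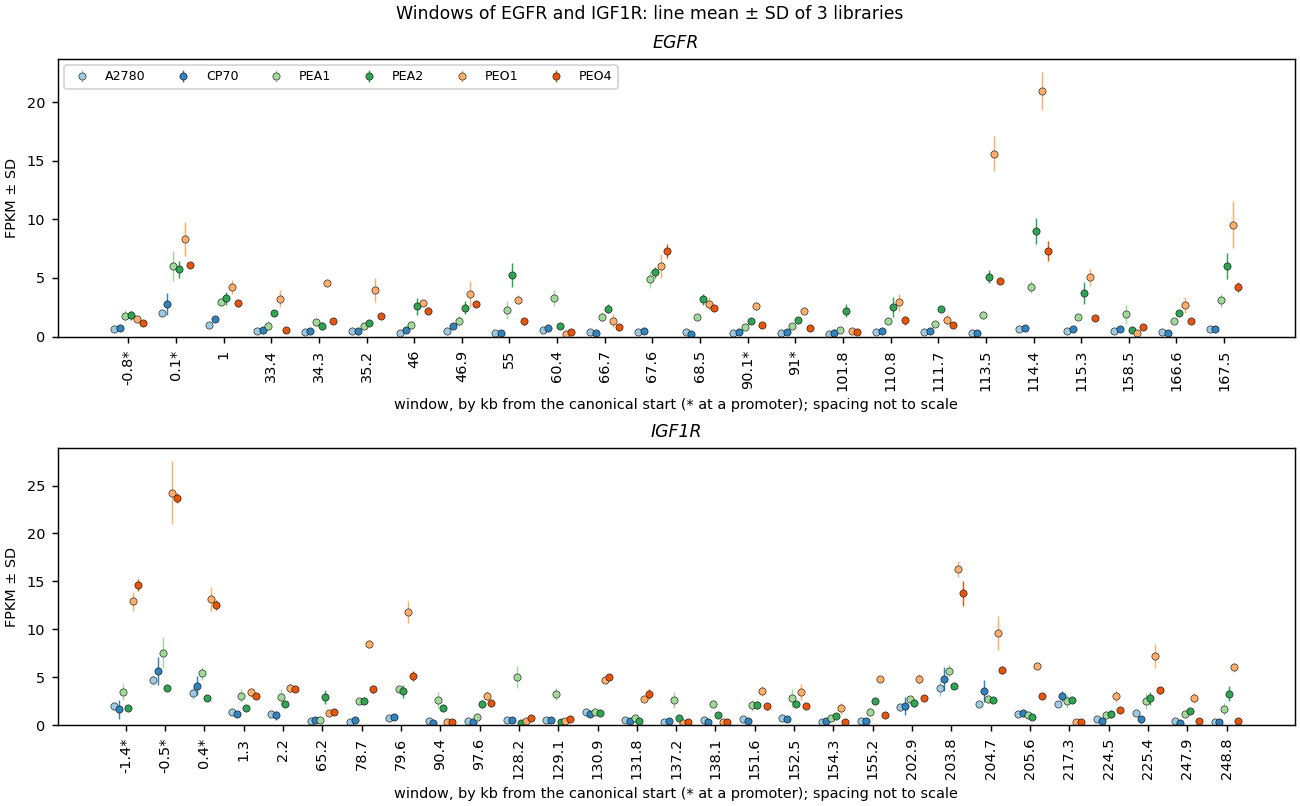
FPKM of every EGFR (top) and IGF1R (bottom) window, as line mean with SD of 3 libraries, ordered by kb from the canonical start with promoter windows starred and spacing not to scale. PEO1 stands above the other lines at 113.5 and 114.4 kb of EGFR, and PEA1 alone stands high at 128.2 and 129.1 kb of IGF1R.

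ERBB2 and ERBB3 had the same order of lines on their distal windows, in FPKM with PEO1 first and A2780 last. For both genes the libraries of PEO1 overlapped those of PEO4, and the libraries of A2780 those of PEA1. Relative to the library median CP70 was first and PEA2 last for both. The ERBB2 promoter mean was, in FPKM, 6.2 ± 0.266 in PEO1, 4.74 ± 0.223 in PEO4, 1.94 ± 0.672 in CP70, 1.85 ± 0.403 in PEA1, 1.33 ± 0.0767 in PEA2 and 1.19 ± 0.187 in A2780, and 1 of its 3 windows is shared with the promoter of PGAP3. The window of the canonical start (chr17:37855800-37856800) had FPKM values of 3.71 ± 0.562 in PEO1, 3.17 ± 0.378 in PEO4, 2.32 ± 0.464 in PEA1, 2.04 ± 0.467 in CP70, 1.55 ± 0.212 in PEA2 and 1.05 ± 0.346 in A2780, and the libraries of every pair of neighbours in that order overlapped. The highest distal window, 6.3 kb downstream in intron 1 (chr17:37862100-37863100), reached 5.92 ± 1.01 FPKM in PEO1 and 4.39 ± 0.92 in PEO4, against 0.834 ± 0.232 in A2780 and 0.682 ± 0.217 in PEA1. ERBB2 was called in no pair, and its promoter log2 fold changes were 0.62 in CP70, -0.43 in PEA2 and -0.38 in PEO4. Downstream of ERBB2, the window at 37.8 kb lies at the promoter of GRB7, whose protein is an adaptor of ERBB2. It had FPKM values of 12.7, 13.6 and 12.2 in PEO4, 9.81, 10.0 and 10.5 in PEO1, 1.59, 1.85 and 1.86 in PEA2, 2.02, 1.25 and 1.2 in PEA1, 0.985, 1.14 and 1.47 in CP70 and 1.01, 0.834 and 0.645 in A2780, and the log2 difference of PEO4 from the other 5 lines was 2.67 ± 0.166 (SE, adjusted p = 3.11e-21 by limma), or 1.90 after median centring, which is inside the threshold.

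The ERBB3 promoter mean was, in FPKM, 9.61, 9.07 and 8.41 in PEO1, 8.57, 9.48 and 7.67 in PEO4, 4.81, 2.87 and 2.87 in CP70, 3.96, 3.04 and 2.8 in PEA1, 2.67, 2.4 and 2.46 in PEA2 and 1.39, 1.48 and 1.26 in A2780. All CP70 libraries lay above all A2780 libraries, and PEO1 and PEO4 overlapped above the other 4 lines. ERBB3 rose in CP70 with a log2 fold change of 1.25 ± 0.255 (SE, adjusted p = 3.08e-05 by limma), which was 0.67 after median centring and 0.62 after removal of the bin median, both inside the threshold of 1. The median over the windows within 2.5 Mb of ERBB3 was 0.72 in CP70. The canonical start window (chr12:56473200-56474200) had FPKM values of 11.5 ± 1.44 in PEO4, 11.4 ± 1.95 in PEO1, 3.75 ± 1.18 in CP70, 3.6 ± 0.659 in PEA1, 2.65 ± 0.186 in PEA2 and 1.39 ± 0.112 in A2780. The 1 distal window, 0.7 kb downstream in intron 1, had FPKM values of 4.33 ± 0.747 in PEO1, 4.22 ± 0.159 in PEO4, 1.87 ± 0.273 in CP70, 1.58 ± 0.157 in PEA2, 1.14 ± 0.237 in PEA1 and 0.884 ± 0.0543 in A2780, and its log2 fold change in CP70 was 0.99 ± 0.217 (SE, adjusted p = 5.28e-05 by limma), just inside the threshold. It was 0.37 after median centring (adjusted p = 0.163 by limma) and 0.36 (adjusted p = 0.192 by limma) after removal of the bin median. Without A2780 replicate 1, and likewise without CP70 replicate 2, 1 member was called on the distal mean in CP70 in place of 0.

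FGFR1 and FGFR2 encode receptors for fibroblast growth factors. In FPKM their promoter means lay highest in different lines, CP70 for FGFR1 and PEO1 for FGFR2. Relative to the library median both lay highest in CP70. The FGFR1 promoter mean was, in FPKM, 3.42 ± 1.4 in CP70, 3.16 ± 0.419 in PEA1, 2.32 ± 0.0627 in PEA2, 2.07 ± 0.0945 in A2780, 1.87 ± 0.27 in PEO1 and 0.98 ± 0.124 in PEO4, lowest in PEO4, where every library lay below every PEO1 library. Relative to the library median the span from CP70 to PEO4 was 9.43-fold. FGFR1 was called in no pair on its promoter or distal mean, with a promoter log2 fold change of -0.87 ± 0.251 (SE, adjusted p = 0.00262 by limma) in PEO4. On the canonical start window alone it was called lower in PEO4. The window of its canonical start had FPKM values of 3.91 ± 1.75 in CP70, 3.6 ± 0.684 in PEA1, 2.94 ± 0.213 in PEA2, 2.59 ± 0.0743 in A2780, 2.17 ± 0.475 in PEO1 and 0.953 ± 0.177 in PEO4, and its highest distal window, 2.8 kb into intron 1, had FPKM values of 2.56 ± 0.568 in PEO1, 2.37 ± 0.538 in PEA1, 1.8 ± 0.102 in PEA2, 1.4 ± 0.314 in CP70, 1.33 ± 0.242 in PEO4 and 0.862 ± 0.281 in A2780.

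FGFR2 differed between its promoter and its distal windows. The promoter mean was, in FPKM, 4.55 ± 0.216 in PEO1, 4.46 ± 0.404 in PEA2, 3.78 ± 0.13 in PEO4, 3.2 ± 0.949 in PEA1, 2.5 ± 0.46 in CP70 and 1.65 ± 0.119 in A2780 and was called in no pair. The canonical start window (chr10:123357600-123358600) had FPKM values of 6.83 ± 0.229 in PEO1, 6.5 ± 0.773 in PEA2, 5.23 ± 0.0493 in PEO4, 3.83 ± 1.17 in PEA1, 3.59 ± 0.902 in CP70 and 2.27 ± 0.22 in A2780. The distal mean of 7 windows was, in FPKM, 4.59, 3.14 and 3.64 in PEA2, 1.78, 1.78 and 2.05 in PEO1, 1.18, 1.5 and 0.781 in PEA1, 1.07, 1.14 and 1.1 in PEO4, 0.451, 0.412 and 0.432 in A2780 and 0.39, 0.436 and 0.395 in CP70. Every PEA2 library lay above all other libraries, and A2780 and CP70 overlapped at the bottom. FGFR2 rose in PEA2 with a distal log2 fold change of 1.66 ± 0.217 (SE, adjusted p = 2.28e-06 by limma), and 1.38 after median centring. The windows within 2.5 Mb of FGFR2, 175 in number, had a median of 1.24 in PEA2, and after removal of the bin median the FGFR2 value was 0.22 (adjusted p = 0.157 by limma). DNA copy number was not analysed here.

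Within FGFR2 the largest value was in intron 6, 71.0 kb from the start. It had FPKM values of 8.24, 4.51 and 6.3 in PEA2, 1.11, 1.75 and 1.67 in PEO1, 1.6, 1.96 and 0.671 in PEA1, 0.581, 0.624 and 0.648 in PEO4, 0.401, 0.451 and 0.446 in A2780 and 0.303, 0.419 and 0.126 in CP70, so that PEA2 stood apart from every other line. The window rose in PEA2 with a log2 fold change of 2.17 ± 0.229 (SE, adjusted p = 5.1e-20 by limma). It was 1.80 after median centring and 0.73 after removal of the bin median, and 1.74 without PEA1 replicate 3 and 1.96 without PEA2 replicate 1, none of them past the threshold. Against the other 5 lines PEA2 was higher by 2.99 ± 0.233 (SE, adjusted p = 9.82e-17 by limma). The highest distal window of FGFR2 by its mean over all libraries, 88.1 kb from the start in intron 9, had FPKM values of 5.46 ± 0.98 in PEA2, 4.85 ± 0.447 in PEO1, 2.64 ± 0.346 in PEO4, 2.57 ± 0.969 in PEA1, 0.659 ± 0.137 in CP70 and 0.496 ± 0.105 in A2780.

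**Figure D4:**
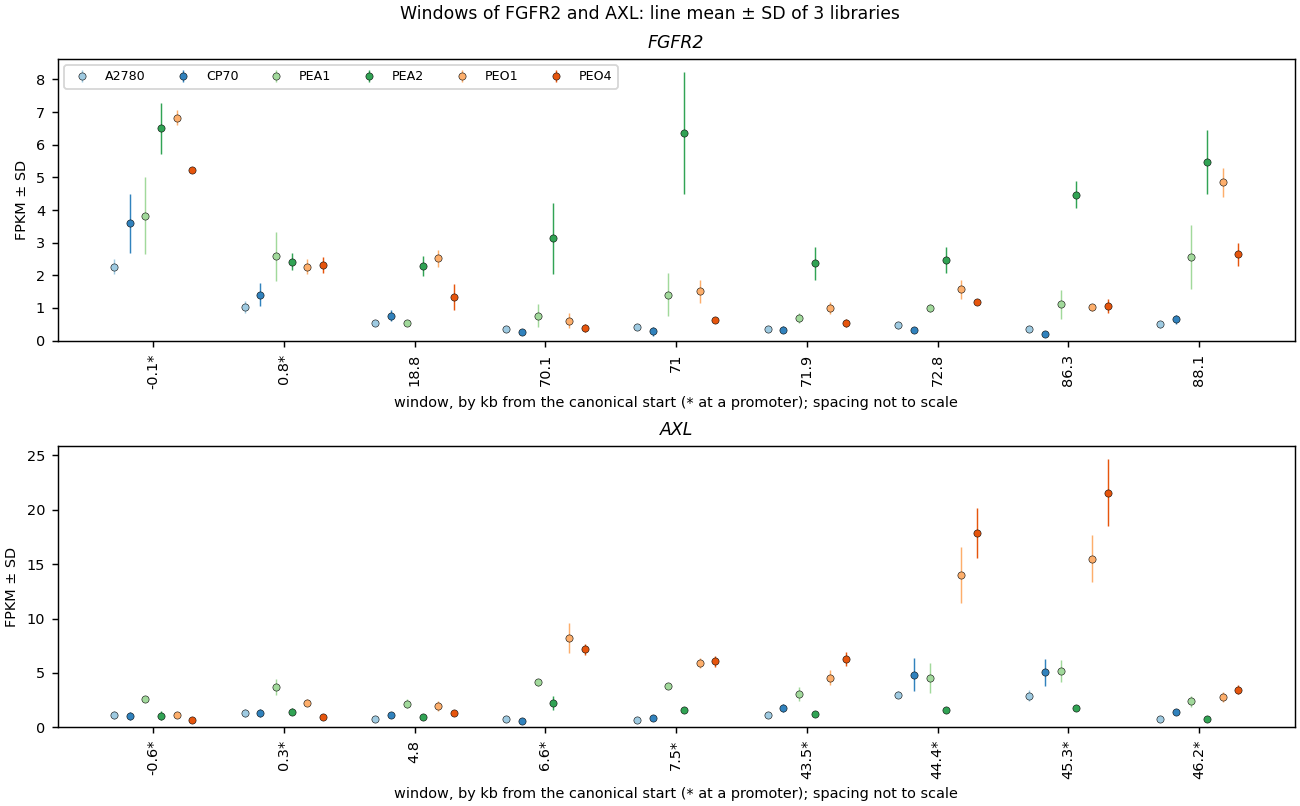
FPKM of every FGFR2 (top) and AXL (bottom) window, as line mean with SD of 3 libraries, ordered by kb from the canonical start with windows at a promoter of this or another gene starred and spacing not to scale. PEA2 is highest in 6 of the 7 distal FGFR2 windows and lies below PEA1 in all 9 AXL windows.

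MET, the receptor for hepatocyte growth factor, had the widest span of promoter levels among the 10 genes in FPKM, while PDGFRA had the widest relative to the library median (12.7-fold). Its 1 promoter window, which holds the canonical start (chr7:116311500-116312500), had FPKM values of 27.2, 25.5 and 27 in PEO1, 16.3, 16.2 and 14.4 in PEO4, 5.38, 6.76 and 4.22 in PEA1, 6.16, 4.39 and 5.1 in PEA2, 3.03, 2.04 and 2.18 in CP70 and 1.41, 1.37 and 1.59 in A2780. Only PEA1 and PEA2 overlapped among neighbours, and the highest line stood 18.2-fold above the lowest, or 4.33-fold relative to the library median. PEO1 was higher than the other 5 lines by 2.58 ± 0.159 (SE, adjusted p = 8.75e-22 by limma) on the log2 scale and A2780 had a log2 difference of -2.34 ± 0.159 (SE, adjusted p = 1.56e-19 by limma) from the other lines. After median centring these were 1.40 and -1.17, inside the threshold of 2. MET was called in no pair on the deposited scale. Its promoter log2 fold change was -0.76 ± 0.0893 (SE, adjusted p = 1.65e-10 by limma) in PEO4, with every PEO4 library below every PEO1 library, and -0.05 ± 0.226 (SE, adjusted p = 0.862 by limma) in PEA2. After removal of the bin median these were -0.03 (adjusted p = 0.846 by limma) and -1.39 (adjusted p = 2.57e-06 by limma), the latter past the threshold of 1. The promoter means of all genes then had a median of -0.51 in PEA2.

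The distal mean of MET had the same order of PEO1 and PEO4 above the PEA lines, with FPKM values of 4.39 ± 0.408 in PEO1, 2.29 ± 0.138 in PEO4, 1.68 ± 0.148 in PEA2, 1.12 ± 0.209 in PEA1, 0.464 ± 0.0943 in CP70 and 0.381 ± 0.0462 in A2780. The highest distal window, 0.6 kb into intron 1, had FPKM values of 14.1 ± 1.63 in PEO1, 7.89 ± 1.4 in PEO4, 3.19 ± 0.436 in PEA1, 2.84 ± 0.439 in PEA2, 1.47 ± 0.386 in CP70 and 1.04 ± 0.109 in A2780 and shares reads with the start window. The window at 44.8 kb in intron 2 (chr7:116356500-116357500) had FPKM values of 11.9, 10.7 and 10.9 in PEO1, 4.83, 5.57 and 4.58 in PEO4, 4.01, 2.6 and 3.19 in PEA2, 2.6, 2.9 and 1.77 in PEA1, 0.833, 1.02 and 0.335 in CP70 and 0.471, 0.406 and 0.413 in A2780. There PEO1 was higher than the other lines by 2.68 ± 0.186 (SE, adjusted p = 1.19e-19 by limma), and by 1.497 after median centring.

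**Figure D5:**
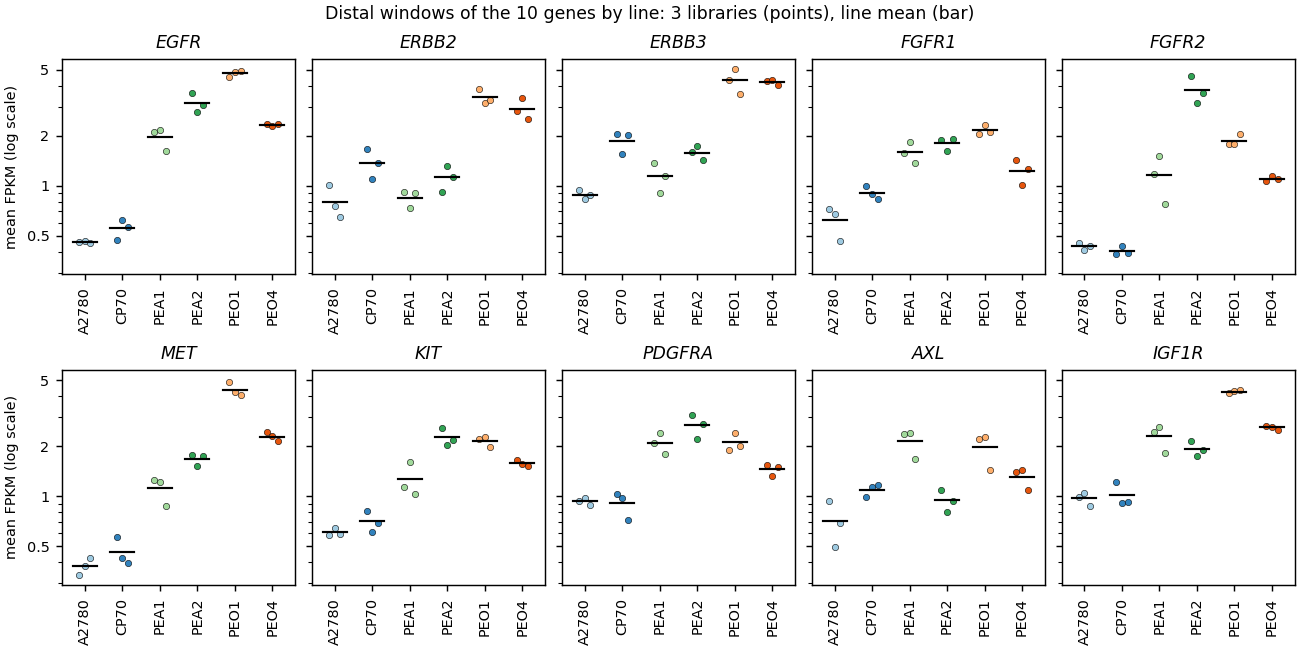
Mean FPKM of the distal windows of each gene on a log axis, with the 3 libraries of a line as points and the line mean as a bar. PEO1 is highest for EGFR and MET and PEA2 for FGFR2, and A2780 and CP70 are the 2 lowest lines for all of these.

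KIT and PDGFRA are neighbours on chromosome 4 and encode related receptors, KIT for stem cell factor and PDGFRA for platelet-derived growth factors. The KIT promoter mean was, in FPKM, 3.21, 2.92 and 2.71 in PEA2, 1.31, 1.66 and 1.44 in PEO4, 1.27, 1.48 and 1.32 in PEA1, 1.01, 1.27 and 0.836 in PEO1, 0.663, 0.744 and 0.942 in A2780 and 0.644, 0.808 and 0.67 in CP70. All PEA2 libraries lay above all others. KIT rose in PEA2 with a log2 fold change of 1.07 ± 0.209 (SE, adjusted p = 2.2e-06 by limma), and 1.29 after median centring, while after removal of the bin median it was 0.34 (adjusted p = 0.0475 by limma) and inside the threshold of 1. In PEO4 the KIT promoter was at 0.48 ± 0.267 (SE, adjusted p = 0.123 by limma), and past the threshold at 1.47 (adjusted p = 1.39e-05 by limma) after removal of the bin median. The promoter means of all genes then had a median of 0.21 in PEO4. The canonical start window of KIT (chr4:55523700-55524700) had FPKM values of 3.83 ± 0.591 in PEA2, 2.42 ± 0.409 in PEO4, 1.76 ± 0.0635 in PEA1, 1.72 ± 0.428 in PEO1, 0.979 ± 0.255 in CP70 and 0.941 ± 0.146 in A2780, and its highest distal window, 1.0 kb into intron 1, had FPKM values of 4.04 ± 0.912 in PEA2, 3.51 ± 0.243 in PEO1, 2.95 ± 0.845 in PEA1, 2.87 ± 0.143 in PEO4, 1.48 ± 0.0482 in CP70 and 1.1 ± 0.1 in A2780. The distal mean was, in FPKM, 2.27 ± 0.281 in PEA2, 2.16 ± 0.157 in PEO1, 1.58 ± 0.0694 in PEO4, 1.27 ± 0.312 in PEA1, 0.706 ± 0.101 in CP70 and 0.61 ± 0.0325 in A2780, and its log2 fold change of 0.81 ± 0.191 (SE, adjusted p = 0.00108 by limma) in PEA2 was inside the threshold.

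PDGFRA was the only member called on a gene mean in 2 pairs, both times on its promoter windows. Its promoter mean, over windows 1.5 and 0.6 kb upstream of the canonical start, was, in FPKM, 4.59, 3.12 and 3.73 in PEA2, 4.15, 4.27 and 3 in PEA1, 1.92, 2.01 and 2.06 in PEO1, 1.56, 2.49 and 1.45 in A2780, 0.606, 1.02 and 0.775 in CP70 and 0.669, 0.552 and 0.448 in PEO4. The CP70 libraries lay below those of A2780 and the PEO4 libraries below those of PEO1, and PEA1 and PEA2 overlapped. PDGFRA fell in CP70 with a log2 fold change of -1.09 ± 0.236 (SE, adjusted p = 0.000105 by limma), and -1.68 after median centring. After removal of the bin median it was -1.08 (adjusted p = 9.41e-05 by limma), where the windows within 2.5 Mb had a median of 0.55. On the deposited scale it was -0.86 without A2780 replicate 2 and -0.93 without CP70 replicate 1, and neither was called. PDGFRA fell in PEO4 with a log2 fold change of -1.69 ± 0.286 (SE, adjusted p = 1.16e-06 by limma), and -1.66 after median centring. After removal of the bin median it was -0.69, inside the threshold, where the windows within 2.5 Mb had a median of -0.74. In PEA2 the value was 0.00 ± 0.215 (SE, adjusted p = 0.992 by limma).

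The highest distal window of PDGFRA, 3.9 kb into intron 1 (chr4:55098900-55099900), had FPKM values of 6.52 ± 1.15 in PEA1, 6.43 ± 1.11 in PEA2, 4.62 ± 0.385 in PEO1, 3.66 ± 0.77 in PEO4, 2.8 ± 0.735 in CP70 and 2.17 ± 0.216 in A2780, and the libraries of each pair overlapped. In PEO4 its log2 fold change was -0.34, and the PDGFRA distal mean was at -0.51 ± 0.137 (SE, adjusted p = 0.00918 by limma), inside the threshold. In CP70 the log2 fold change of that window was 0.33, against -1.06 and -1.13 in the 2 promoter windows. The difference between these windows was not tested. A window at 52.5 kb in intron 16 (chr4:55147500-55148500) had FPKM values of 2.83, 2.97 and 3.46 in PEO1, 1.28, 1.44 and 1.54 in PEO4, 0.769, 0.751 and 0.621 in PEA2, 0.609, 0.717 and 0.432 in PEA1, 0.152, 0.419 and 0.293 in CP70 and 0.262, 0.158 and 0.281 in A2780 and was higher in PEO1 than in the other 5 lines by 2.33 ± 0.232 (SE, adjusted p = 1e-13 by limma), or 1.14 after median centring. The window that holds the canonical start of PDGFRA was not used here.

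AXL, the receptor for GAS6, has annotated starts at 2 places, and the lines ranked differently at them. The window of the canonical start (chr19:41724900-41725900) had FPKM values of 4.2, 4.05 and 2.88 in PEA1, 1.92, 2.27 and 2.56 in PEO1, 1.37, 1.16 and 1.77 in PEA2, 1.73, 1.22 and 0.942 in A2780, 0.985, 1.68 and 1.17 in CP70 and 0.872, 0.96 and 0.897 in PEO4. PEA1 was highest there, with every library above all others, and PEO4 was lowest. The start window 6.6 kb downstream (chr19:41731200-41732200) had FPKM values of 9.51, 8.29 and 6.8 in PEO1, 7.09, 7.73 and 6.68 in PEO4, 4.36, 4.27 and 3.79 in PEA1, 1.76, 2.95 and 1.95 in PEA2, 0.872, 0.653 and 0.678 in A2780 and 0.227, 0.718 and 0.67 in CP70. Here PEO1 and PEO4 were highest in FPKM, PEA1 was highest relative to the library median (3.45 times, against 2.85 in PEO1 and 3.18 in PEO4), and A2780 and CP70 were at or below 1.07 times that median. The log2 difference of CP70 from the other 5 lines at this start was -2.54 ± 0.186 (SE, adjusted p = 2.95e-18 by limma), or -1.80 after median centring.

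The AXL promoter mean over 4 windows was, in FPKM, 4.48, 4.49 and 4.15 in PEO1, 3.63, 3.95 and 3.49 in PEO4, 3.72, 3.75 and 3.18 in PEA1, 1.46, 1.62 and 1.64 in PEA2, 1.21, 0.929 and 0.752 in A2780 and 0.72, 1.21 and 0.879 in CP70. PEA2 lay below PEA1 in every library, and AXL fell in PEA2 with a log2 fold change of -1.12 ± 0.207 (SE, adjusted p = 4.76e-07 by limma). The 1 distal window, 4.8 kb from the start in intron 4, had FPKM values of 2.37, 2.4 and 1.68 in PEA1 and 1.1, 0.809 and 0.932 in PEA2, with line means of 1.98 in PEO1, 1.31 in PEO4, 1.1 in CP70 and 0.711 in A2780, and it fell in PEA2 by 1.10 ± 0.19 (SE, adjusted p = 5.7e-05 by limma) on the log2 scale. After median centring the values were -0.90 on the promoter mean, inside the threshold of 1, and -1.37 on the distal window. Without PEA2 replicate 2 the distal window was not called. The 197 windows within 2.5 Mb of AXL had a median of -1.23 in PEA2. After removal of the bin median AXL was at -0.13 (adjusted p = 0.353 by limma) and -0.11 (adjusted p = 0.517 by limma). The 4 windows at the promoter of HNRNPUL1, 43.5 to 46.2 kb downstream, had log2 fold changes from -1.295 to -1.502 in PEA2, and 0 of them were called.

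IGF1R, the receptor for insulin-like growth factors, held 6 of the 8 called windows. Its promoter mean was, in FPKM, 16.8, 17.5 and 16.6 in PEO4, 17, 18.2 and 15.1 in PEO1, 6.16, 5.98 and 4.28 in PEA1, 5.1, 3.03 and 3.28 in CP70, 2.91, 3.89 and 3.28 in A2780 and 2.86, 2.81 and 2.88 in PEA2. PEO1 and PEO4 overlapped far above the other lines, and PEA2 was lowest, with every library below those of PEA1. The promoter log2 fold change was -0.90 ± 0.216 (SE, adjusted p = 0.000128 by limma) in PEA2 and 0.02 ± 0.0946 (SE, adjusted p = 0.891 by limma) in PEO4, and neither was called. After removal of the bin median both passed the threshold of 1, at -1.31 (adjusted p = 9.7e-07 by limma) in PEA2 and 1.03 (adjusted p = 3.84e-08 by limma) in PEO4. The promoter means of all genes then had medians of -0.51 in PEA2 and 0.21 in PEO4. The canonical start window (chr15:99191700-99192700) had FPKM values of 13.2 ± 1.29 in PEO1, 12.6 ± 0.483 in PEO4, 5.4 ± 0.664 in PEA1, 4.12 ± 0.97 in CP70, 3.37 ± 0.622 in A2780 and 2.88 ± 0.23 in PEA2, and the highest distal window, 203.8 kb downstream in intron 2, had FPKM values of 16.3 ± 0.812 in PEO1, 13.8 ± 1.28 in PEO4, 5.67 ± 0.658 in PEA1, 4.8 ± 1.24 in CP70, 4.04 ± 0.121 in PEA2 and 3.83 ± 0.748 in A2780.

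A pair of neighbouring windows in intron 2 was open in PEA1 alone. The window at 128.2 kb (chr15:99319500-99320500) had FPKM values of 5.38, 5.92 and 3.69 in PEA1, 0.698, 0.528 and 1.1 in PEO4, 0.606, 0.479 and 0.67 in CP70, 0.575, 0.563 and 0.496 in A2780, 0.202, 0.611 and 0.446 in PEO1 and 0.44, 0.173 and 0.133 in PEA2, which was 77 to 190 reads per PEA1 library and 3 to 8 per PEA2 library. It fell in PEA2 with a log2 fold change of -3.94 ± 0.266 (SE, adjusted p = 4.01e-47 by limma), and -4.31 after median centring and -4.35 after removal of the bin median. PEA1 was higher than the other 5 lines by 3.14 ± 0.252 (SE, adjusted p = 6.91e-16 by limma). The window at 129.1 kb had 3.62, 3.58 and 2.59 FPKM in PEA1 and 0.55, 0.231 and 0.222 in PEA2, and fell with a log2 fold change of -3.02 ± 0.275 (SE, adjusted p = 1.99e-26 by limma), -3.39 after median centring and -3.43 after removal of the bin median. In both windows the other 5 lines stood below their library median. The 300 bases where these windows meet (GRCh37, chr15:99320300-99320599, plus strand) are shown as the site with the largest change in the 10 genes. The capitals mark the GC box GGGCGG and CATTCC, the reverse complement of the TEAD motif.
IGF1R intron 2, 128 kb: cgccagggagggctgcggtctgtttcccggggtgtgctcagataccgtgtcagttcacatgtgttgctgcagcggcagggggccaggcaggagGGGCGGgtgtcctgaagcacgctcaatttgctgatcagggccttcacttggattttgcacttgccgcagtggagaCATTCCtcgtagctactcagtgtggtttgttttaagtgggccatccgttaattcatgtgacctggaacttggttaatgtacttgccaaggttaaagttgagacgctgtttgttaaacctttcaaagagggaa

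The same gene held sites that moved in the PEO pair. The window at 248.8 kb in intron 4 had FPKM values of 6.17, 5.5 and 6.46 in PEO1, 4.18, 2.72 and 3.02 in PEA2, 1.86, 2.27 and 0.959 in PEA1, 0.174, 0.528 and 0.648 in PEO4, 0.366, 0.383 and 0.397 in A2780 and 0.53, 0.239 and 0.209 in CP70. It was highest in PEO1, lower in PEA2, and at 3 to 13 reads per library in PEO4. The window fell in PEO4 with a log2 fold change of -3.60 ± 0.274 (SE, adjusted p = 5.12e-14 by limma), and -3.26 after median centring and -2.59 after removal of the bin median. Its neighbour at 247.9 kb fell by 2.44 ± 0.289 (SE, adjusted p = 2.84e-09 by limma) on the log2 scale and stood at -2.09 after median centring and, inside the threshold of 2, at -1.43 after removal of the bin median. The windows within 2.5 Mb of IGF1R had a median of -0.96 in PEO4.

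The remaining 2 called windows of IGF1R lay in intron 2. The window at 65.2 kb had 0.673, 0.405 and 0.575 FPKM in PEA1 and 3.46, 2.08 and 3.28 in PEA2, with a log2 fold change of 2.21 ± 0.259 (SE, adjusted p = 1.43e-16 by limma), 1.84 after median centring and 1.80 after removal of the bin median. The window at 155.2 kb had 5.06, 4.71 and 4.68 FPKM in PEO1 and 1.16, 0.816 and 1.34 in PEO4, with a log2 fold change of -2.05 ± 0.208 (SE, adjusted p = 7.15e-11 by limma), -1.71 after median centring and -1.04 after removal of the bin median. All 4 of these centred and bin-removed values lie inside the threshold of 2. Each window had a smaller change than the pair of windows given above for its lines. A further site, at 217.3 kb (chr15:99408600-99409600), was low in both PEO lines, whose IGF1R promoter was the highest. It had FPKM values of 3.56, 2.45 and 3.14 in CP70, 2.86, 2.31 and 2.57 in PEA2, 3.04, 2.68 and 1.73 in PEA1, 2.35, 2.48 and 1.88 in A2780, 0.349, 0.384 and 0.199 in PEO4 and 0.405, 0.262 and 0.223 in PEO1, with 2 to 4 reads per PEO1 library. The log2 difference from the other 5 lines was -2.22 ± 0.198 (SE, adjusted p = 2.05e-15 by limma) for PEO1 and -2.16 ± 0.198 (SE, adjusted p = 9.62e-15 by limma) for PEO4, and -3.40 and -2.94 after median centring. These 3 windows, and the EGFR windows at 34.3, 35.2 and 60.4 kb, lie outside the rule for naming windows and were picked with their values known.

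The 10 genes were then compared line by line, each line against the mean of the other 5 over all 18 libraries, in 107 windows with a mean above 1 FPKM. In A2780, 0 windows were higher and 13 lower (all windows: 0.0499% and 7.84%), and in CP70 0 and 12 (0.178% and 9.54%). In PEA1, 2 were higher and 0 lower (0.711% and 1.79%), and in PEA2 3 and 2 (4.41% and 1.04%). In PEO1, 21 were higher and 1 lower (20.8% and 0.673%), and in PEO4 7 and 1 (10.4% and 0.333%). Of these 62 calls, those of A2780 and CP70, the lines with the lowest library medians, were all lower, and 28 of the 30 of the PEO lines, with the highest medians, were higher. After median centring 21 of the 642 comparisons were called. The 2 windows higher in PEA1 were the IGF1R window at 128.2 kb and an EGFR window 60.4 kb into intron 1, which had 4.04, 2.99 and 2.83 FPKM in PEA1 and 0.824, 0.983 and 0.932 in PEA2.

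A fit that used 1 mean value for each of the 6 lines and kept the pairing set the resistant lines against the sensitive ones. On promoter means 0 of 10 members were called by limma (0% of 14024 genes), and the smallest unadjusted p was 0.0440, for PDGFRA, with a log2 difference of -0.93. Of all genes 170 had an unadjusted p under 0.05. On distal means 0 of 10 members were called (0.0172% of all genes), and the smallest unadjusted p of a member was 0.275, for ERBB3. Of the members tested in all 3 pairs, 0 of 7 on promoter means and 0 of 1 on distal means had the same sign in each, called or not. The share of all genes was not computed. On promoter means PDGFRA fell in CP70 and PEO4 and stood at 0.0028 in PEA2. The pairs themselves differed for many members, as for many genes. On promoter means 7 members differed between the PEA and A2780 pairs (all genes: 43.5%), 5 between the PEO and A2780 pairs (25.6%) and 1 between the PEA and PEO pairs (37.1%). On distal means these were 2 (39.5%), 5 (32.2%) and 4 (50.6%). The first 2 of these comparisons share the A2780 and CP70 libraries.

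Other genes of the same signalling were counted from lists, on the deposited scale only, with no values after median centring or removal of the bin median. Of 40 other receptor tyrosine kinases, 2 rose and 0 fell among 28 tested on promoter means in CP70, 5 rose and 6 fell of 32 in PEA2, and 4 rose and 2 fell of 28 in PEO4. Of all genes, CP70 had 7.28% higher and 0.397% lower on promoter means, PEA2 had 7.44% higher and 11.7% lower, and PEO4 had 4.8% higher and 7.45% lower. On distal means CP70 had 9.68% higher and 0.498% lower, PEA2 had 23.3% higher and 8.44% lower, and PEO4 had 6.28% higher and 16.9% lower. Ephrin receptors moved both ways on promoter means in PEA2. EPHA1, EPHA4, EPHB1 and EPHB6 rose, by 2.47, 2.07, 1.33 and 1.31 on the log2 scale. EPHA2, EPHA3 and EPHB2 fell, with log2 fold changes of -1.02, -1.30 and -1.22. The pseudokinase PTK7 fell by 1.56. In PEO4 PTK7 rose by 1.96, and DDR1, a collagen receptor, rose by 1.08. On distal means 2 rose and 0 fell of 14 in CP70, 11 rose and 2 fell of 28 in PEA2 and 4 rose and 6 fell of 34 in PEO4, among them FLT1, a VEGF receptor, which rose by 4.08 in PEO4. The median log2 fold changes of the tested receptors were 0.43, -0.06 and -0.29 on promoter means (all genes 0.59, -0.20 and -0.04) and 0.43, 0.51 and -0.32 on distal means (all genes 0.62, 0.25 and -0.25).

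Against the same shares and medians of all genes, the counts of 27 ligands were as follows. On promoter means 1 rose and 0 fell of 12 in CP70, 0 rose (7.44% of all genes) and 3 fell (11.7%) of 17 in PEA2 and 0 rose (4.8%) and 6 fell (7.45%) of 18 in PEO4. NRG1, the neuregulin that binds ERBB3, fell in PEA2 by 1.28 on the log2 scale, and EREG, a ligand of EGFR, fell by 1.33. GAS6, the ligand of AXL, fell in PEO4 by 1.13, and PDGFA, a ligand of PDGFRA, fell in PEO4 by 1.39 and rose in CP70 by 1.30. The median of all genes on promoter means in CP70 was 0.59. On distal means 2 rose and 0 fell of 4 in CP70, 0 of 16 were called in PEA2 and 0 rose (6.28% of all genes) and 8 fell (16.9%) of 20 in PEO4. The median log2 fold changes of the tested ligands were 0.49, -0.36 and -0.76 on promoter means and 0.89, 0.43 and -0.97 on distal means. Of 19 adaptors and inhibitors, 0 rose and 1 fell of 19 on promoter means in CP70, 1 rose and 3 fell in PEA2 and 0 were called in PEO4. IRS2, an adaptor of IGF1R, fell in CP70 by 1.94, and LRIG1, which lowers ERBB receptor levels, fell in PEO4 on its distal mean by 1.60. On distal means 0 rose and 1 fell of 8 in CP70, 2 rose and 1 fell of 17 in PEA2 and 0 rose and 2 fell of 18 in PEO4. The medians were 0.56, -0.33 and -0.11 on promoter means and 0.45, -0.24 and -0.34 on distal means.

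For each member the 2 genes on other chromosomes with the most similar distal profile were found by Pearson's r of the log2 distal mean over the 18 libraries, which come from 6 lines and share their depth and library medians. The closest were WWC1 (r = 0.998) and SH3TC2 (0.994) for EGFR, HSBP1L1 (0.978) and MYB (0.976) for ERBB2, MYB (0.984) and MMRN2 (0.981) for ERBB3, CIDEA (0.975) and PRDM6 (0.961) for FGFR1 and PRLR (0.993) and ADAMTS18 (0.988) for FGFR2. For MET they were EPCAM (0.993) and CRIM1 (0.992), for KIT TCF7L2 (0.986), for PDGFRA PTPRD (0.984) and PTPN14 (0.978), for AXL ALPL (0.931) and ALG1 (0.917) and for IGF1R COQ2 (0.994) and CELF2 (0.990). High values were common, since 1392 genes passed r = 0.9 with EGFR and 2089 with MET, but 4 did with AXL. After median centring of the libraries 192, 214 and 5 did, and the closest genes of EGFR, FGFR2, MET and PDGFRA were still WWC1, PRLR, EPCAM and PTPRD. On that scale FGFR2 was the second closest to KIT (0.959).

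Short motifs were counted on both strands of the member windows and of all windows of the same length. The AP-1 motif TGANTCA was in 39 of 87 distal windows (44.8%), against 46.8% of the 64052 distal windows of the table, and the TEAD motif GGAATG in 43 (49.4%), against 49.5%. The GC box GGGCGG was in 32 (36.8%, all 31.96%), the ETS motif GGAAGTG in 17 (19.5%, all 21.8%), the SOX motif AACAATG in 13 (14.9%, all 14.3%) and the CRE motif TGACGTCA in 0 (all 0.762%). In the 37 windows at promoters, including those of neighbouring genes, the shares were 81.1% for the GC box (all 80.1%), 54.1% for TEAD (all 36.7%), 24.3% for AP-1 (all 17.0%), 10.8% for SOX (all 7.33%), 8.11% for ETS (all 23.5%) and 0% for CRE (all 2.68%). The start window of AXL at 6.6 kb held 4 AP-1 matches, and that of MET held 1 AP-1 match and 8 GC boxes. These are matches of letters in windows that overlap their neighbours, and no test was made of them.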

How the data were processed

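ATAC-seq was done on 3 libraries of each of 6 ovarian cancer cell lines. According to the study's methods, the authors removed duplicates with Picard, aligned reads with Bowtie2 to hg19, kept unique alignments outside blacklisted and mitochondrial regions, counted reads in sliding windows with featureCounts and scaled them with edgeR. Versions are not given in the sources used here. The deposited table holds these values as FPKM, which for windows of 1 length are RPM (reads scaled to the library total) times a constant. Whole reads and library totals were recovered from the steps between low values, and all values came out whole within 0.05 of a read, so that 1 read was worth 0.0165 to 0.111 FPKM.

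Windows were annotated with GENCODE for GRCh37. Promoter windows overlap 1 kb upstream to 100 bp downstream of a transcript start. Tests used limma 3.58.1 in R 4.3.3 with a mean-variance trend on log2(FPKM + 0.1), a scale that understates changes of low values, for windows or genes with a mean above 1 FPKM in the libraries compared. The study used voom, for which the trend stands in, and voom was not run on the recovered reads. P-values were adjusted by Benjamini-Hochberg over all windows or genes tested. Each line was also compared with the mean of the other 5, pairs were compared by the difference of their changes, and resistant and sensitive lines by line means with the pair as a term. For CP70 and PEA2 windows and promoter means, CP70 distal means and the line means, limma estimated no spread particular to a feature, so a feature's own replicate spread carries no weight in its p. Alternatives were other pseudocounts and filters, median centring, removal of the 5 Mb bin median, edgeR 4.0.16 on recovered reads, other thresholds, a replicate block and leaving out each library. The scripts were tested on simulated data. Python 3.11.15 was used for tables, motifs and plots.

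The members and lists were chosen with earlier results of these data known. Named windows are the canonical start, the distal window with the highest mean, up to 2 called windows per pair with the largest change and the window with the largest called line difference. Reads are counted without molecular identifiers. Sequences were read from the GRCh37 genome, and those of 2 windows and 1 gene similar to KIT are not reported here.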

Additional observations from a re-analysis of the deposited data

Results flagged for a closer look

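These values are log2 differences between the changes of 2 pairs, each resistant against sensitive, and each passed limma's test of the difference itself at a size above 1. Comparisons with the A2780 pair share its libraries.

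Between the PEA and A2780 pairs the promoter mean differed by -1.61 for ERBB3, -1.08 for AXL, -1.05 for each of ERBB2, FGFR1 and IGF1R, 1.19 for KIT and 1.09 for PDGFRA. The distal mean differed by -1.69 for AXL and 1.73 for FGFR2. KIT, PDGFRA, AXL distal and FGFR2 distal were also called after median centring, but not after removal of the 5 Mb bin median, where they were 0.45, 0.36, 0.01 and 0.64. FGFR1 and IGF1R were called after that removal, at -1.35 and -1.46. The promoter means of AXL and ERBB2 changed sign there, to 0.62 (adjusted p = 0.0539 by limma) and 0.12 (adjusted p = 0.68 by limma), and were not called. The promoter means of all genes then had a median change of -0.51 in PEA2 and 0.16 in CP70.

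Between the PEO and A2780 pairs the promoter mean differed by -1.5 for FGFR1, -1.43 for MET, -1.33 for ERBB3 and -1 for EGFR and ERBB2. The distal mean differed by -1.27 for FGFR1, -1.22 for EGFR, -1.14 for AXL, -1.13 for MET and -1.02 for ERBB3. All 10 have the same sign, and 0 of them were called by limma after median centring. With the bin median removed the promoter mean of EGFR stood at 0.096 (adjusted p = 0.861 by limma).

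Between the PEA and PEO pairs the promoter mean differed by 1.69 for PDGFRA. The distal mean differed by 2.37 for FGFR2, 1.66 for EGFR, 1.47 for MET and 1.24 for KIT. PDGFRA, FGFR2 and EGFR were also called after median centring, but not after removal of the bin median, where they were -0.03, 0.59 and -0.04. MET and KIT were not called after median centring. With the bin median removed they changed sign, to -0.60 (adjusted p = 0.00536 by limma) and -0.48 (adjusted p = 0.0155 by limma), both inside the threshold of 1.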

How the results depend on the processing

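Of 383 alternative values of 20 named results, 337 kept direction and call, 46 kept direction only and 0 reversed. This does not hold for all differences between pairs, some of which changed sign with the bin median removed. Among them, the distal means of MET and KIT between the PEA and PEO pairs went from 1.47 to -0.60 and from 1.24 to -0.48. The promoter means of AXL and ERBB2 between the PEA and A2780 pairs went from -1.08 to 0.62 and from -1.05 to 0.12. A replicate block changed no call, with 62 line calls and 4 windows in each of PEA2 and PEO4 under the block, and the replicate numbers gave correlations of -0.158 to 0.0643, so they do not pair libraries. Dropping the mean-variance trend, chosen after seeing the data, changed no count beyond 1.5 times. The other counts below moved.

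Called windows in CP70 (0) became 1 by edgeR and 5 at thresholds of 1 and 0.05. In PEA2 (4) they became 7 at a pseudocount of 0.01, 1 at a pseudocount of 1, 2 at a mean above 2 FPKM and 39 at thresholds of 1 and 0.05, and of the 4 only the IGF1R windows at 128.2 and 129.1 kb passed the fold threshold with centring and with the bin median removed. In PEO4 (4) they became 1 at a pseudocount of 1, 2 at a mean above 2 FPKM, 2 with median centring, 1 with the bin median removed and 29 at thresholds of 1 and 0.05. On promoter means, CP70 (2) gave 0 at a pseudocount of 1 and at thresholds of 2 and 0.001, and 1 at a mean above 2 FPKM, with centring, with the bin median removed, by edgeR and on the canonical window. PEA2 (2) gave 0 at a pseudocount of 1 and at thresholds of 2 and 0.001, and 1 with centring and by edgeR. With the bin median removed it gave 2, but these were IGF1R and MET in place of KIT and AXL, and all genes had a median of -0.51. PEO4 (1) gave 0 at a pseudocount of 1, at a mean above 2 FPKM and at thresholds of 2 and 0.001. On the canonical window it gave 2, FGFR1 and AXL, both lower in PEO4, and PDGFRA had no such window here. It also gave 2 with the bin median removed, where these were IGF1R and KIT in place of PDGFRA. All genes had a median of 0.21 in PEO4 with the bin median removed. On distal means, CP70 (0) and PEO4 (0) each gave 1 at a pseudocount of 0.01, and PEA2 (2) gave 1 at a pseudocount of 1 and at a mean above 2 FPKM and 0 with the bin median removed and at thresholds of 2 and 0.001. Line calls (62) became 9 at a pseudocount of 1, 21 with centring, 14 with the bin median removed, 23 by edgeR and 308 at thresholds of 1 and 0.05. Differences between pairs on promoter means (13) became 3 at a pseudocount of 1, with centring and by edgeR, 8 with the bin median removed and 0 at thresholds of 2 and 0.001. On distal means (11) they became 4 at a pseudocount of 1 and at a mean above 2 FPKM, 5 with centring and by edgeR, and 1 with the bin median removed and at thresholds of 2 and 0.001. The cause of these moves was not tested, except that a higher filter leaves fewer features and a higher threshold fewer calls by construction.

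Leaving out 1 library gave 59 to 72 line calls, 0 to 0, 3 to 7 and 3 to 5 windows in CP70, PEA2 and PEO4, 1 to 2, 2 to 3 and 1 to 1 promoter means, 0 to 1, 1 to 2 and 0 to 1 distal means, and 7 to 13 promoter and 9 to 12 distal differences between pairs. PEA2 replicate 2 moved windows from 4 to 7 and distal means from 2 to 1, A2780 replicate 2 and CP70 replicate 1 moved promoter means in CP70 from 2 to 1, and CP70 replicate 1 moved promoter differences from 13 to 7. Depth limits the lowest windows, at 2 to 13 reads per library.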
